A study of Homo sapiens with 54 samples.

Results

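The 54 genes described here are transcribed for cell division: cyclins and CDK1, mitotic kinases, checkpoint and anaphase genes, the chromosomal passenger complex, kinetochore proteins, kinesins, spindle proteins, cytokinesis genes, 2 chromosome structure genes and 2 transcription factors. They were taken by symbol from the 33119 genes of the count tables, and all 54 symbols were found. RNA of 6 established human cancer cell lines was sequenced from transcript 3′ ends in 54 libraries, 3 for each of 18 groups, in 2 sets. In set 1 the colorectal lines SW48 and SW620 were grown with trametinib, which blocks the MEK kinases of the ERK pathway, or as controls. In set 2 the same lines were grown with trametinib, with palbociclib, an inhibitor of the cyclin-dependent kinases CDK4 and CDK6, or as controls, while the stomach lines NCI-N87 and MKN-45 and the breast lines BT-474 and BT-20 were grown with afatinib, an irreversible inhibitor of the ERBB receptors, or as controls. All lines were grown in the same serum-containing medium with antibiotics. The labels name no dose, no exposure time and no vehicle for the controls. They also do not say whether the 3 libraries of 1 group are separate cultures, and a p-value here reflects the variation among those libraries, which may be technical.

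A cell that enters mitosis makes cyclin B, which activates the kinase CDK1. Polo-like and Aurora kinases then mature the spindle poles and correct the attachment of chromosomes, kinesins move microtubules and chromosomes, and kinetochores tie each chromosome to the spindle. A checkpoint holds back the anaphase-promoting complex, APC/C, until every kinetochore is attached; the complex then marks cyclin B and securin for destruction and the sister chromatids part. Most of these genes are transcribed late in the cell cycle, by MuvB complexes with MYBL2 and FOXM1 that bind the cell cycle homology region in promoters next to boxes for the factor NF-Y, and are repressed in resting cells by the DREAM complex through the same region. In a bulk sample, fewer dividing cells and less RNA per dividing cell cannot be told apart.

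Libraries held 4063382 to 10622670 counts in set 1 and 3401565 to 12806042 in set 2, and the 54 genes took between 0.114% and 1.08% of the counts of a library. Of the 54, 53 passed the filter on low counts in each drug comparison. The exception was SPC24, a kinetochore subunit with 0 to 19 counts in any library. The last 500 bases of BUB1B, CCNA2, FOXM1, KIF20A, NUSAP1, PLK1, PRC1, RACGAP1, SPC24 and SPC25 overlap an exon of another gene, and whether counting used the strand is not stated, so the values of these 10 are less certain. KIF4A and PTTG1 have near-identical copies elsewhere in the genome. The 5 epithelial markers EPCAM, KRT8, KRT18, KRT19 and CDH1 were read in every group, with sums of 1690 to 8700 CPM. The markers of other cell types summed to at most 54.6 CPM (5 stromal genes), 17 CPM (3 endothelial genes) and 34.6 CPM (4 leukocyte genes). In set 1, control 3 of SW620 stood apart from the other 5 libraries of that line: it was the highest of the 6 for 16 members and the lowest for 26.

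The promoters of these genes carry the 2 motifs named above, and a few are shown because the members moved together in several comparisons. RefSeq promoters, 250 bases before to 50 bases after a start on GRCh38.p14, were at hand for 46 of the 54. The cell cycle homology region, searched on both strands as TTTGAA or TTCGAA, was in 33 of the 46 (71.7%) and in 16.6% of the 27305 promoters of the table. The NF-Y box, CCAAT on either strand, was in 36 (78.3%) against 35.7% of all promoters, and at least 2 boxes were in 24 (52.2%) against 11.3%. Both motifs stood together in 29 members (63.0%) and in 6.58% of all promoters. The stretches below are upstream of the start, 5′ to 3′ on the strand of the gene, from 6 bases before the first to 6 after the last motif. Capitals mark the motifs, with the NF-Y box reading ATTGG and the homology region TTCAAA when they lie on the opposite strand.
PLK1, chr16:23678810-23678871, plus strand: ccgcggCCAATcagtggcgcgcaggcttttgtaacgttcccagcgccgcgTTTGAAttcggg
PRC1, chr15:90994544-90994594, minus strand: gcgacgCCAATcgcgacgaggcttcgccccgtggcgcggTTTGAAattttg
KIF23, chr15:69414279-69414305, plus strand: gcgctgATTGGcccgTTTGAAatgcgc
KIF4A, chrX:70290040-70290081, plus strand: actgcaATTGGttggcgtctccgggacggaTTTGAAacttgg
CDC20, chr1:43358797-43358936, plus strand: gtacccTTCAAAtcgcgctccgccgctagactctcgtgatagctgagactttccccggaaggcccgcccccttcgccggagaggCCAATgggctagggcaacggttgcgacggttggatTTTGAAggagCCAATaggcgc
CCNB1, chr5:69167057-69167105, plus strand: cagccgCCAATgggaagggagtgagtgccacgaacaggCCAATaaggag
CENPF, chr1:214603095-214603172, plus strand: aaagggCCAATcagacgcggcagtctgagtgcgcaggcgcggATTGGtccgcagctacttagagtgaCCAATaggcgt
In PLK1, PRC1 and KIF4A an NF-Y box begins 73, 53 and 58 bases before the start and the homology region follows at 29, 20 and 34 bases. In KIF23 they begin at 64 and 55 bases. Upstream of the start, CDC20 holds 2 of each motif, and CCNB1 and CENPF hold NF-Y boxes (2 and 3) with no match to the homology region. The 50 bases after the start, which the shares above include, are not shown here.

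Afatinib lowered the whole group in BT-474. All 53 members tested fell (edgeR quasi-likelihood test, Benjamini-Hochberg adjusted over 12768 genes, threshold 0.05), where 42.7% of all genes tested passed in either direction and 21.8% were lower. Their median log2 fold change was -2.61, a ratio of 0.164 of the control level, against 0.01 over all genes tested. The summed level of the 54 was 1173 ± 35.6 CPM (counts scaled to the size of each library, with TMM factors) with afatinib and 6920 ± 165 CPM in controls (SD, n = 3 each). None of the 54 overlapped between the groups, and nor did 53.1% of the 12822 genes with enough counts. SPC24 had no count in the 3 afatinib libraries and 1, 7 and 8 counts in controls. The 53 ranged from -4.40 for PRR11 to -0.45 for BUB3. The 5 epithelial markers summed to 3980 to 4180 CPM with afatinib and 4000 to 4090 CPM in controls of BT-474.

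PRR11, NUF2, HMMR and KIF20A were among the members that fell most in BT-474. PRR11, a regulator of mitotic progression on chromosome 17 (59155499 to 59204705), had 35.2, 31.6 and 31.7 CPM with afatinib, against 698, 680 and 712 CPM in controls (log2 fold change -4.40 ± 0.07 SE, adjusted p = 1.87e-12). It was the largest change of the 53. NUF2, of the NDC80 complex that grips microtubules at the kinetochore, had 6.70, 7.78 and 6.40 CPM with afatinib and 113, 91.5 and 105 CPM in controls (-3.88 ± 0.12, adjusted p = 4.55e-10). HMMR, a spindle protein, had 2.58, 2.77 and 5.09 CPM with afatinib and 44.1, 50.1 and 50.3 CPM in controls (-3.77 ± 0.18, adjusted p = 1.03e-08). The kinesin KIF20A, needed in cytokinesis, had 5.33, 3.63 and 2.63 CPM with afatinib and 47.6, 49.2 and 53.7 CPM in controls (-3.69 ± 0.17, adjusted p = 8.00e-09). In these 4 genes the highest afatinib library lay far below the lowest control.

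PLK1, AURKB, AURKA, CCNB1 and CDC20 fell in BT-474 by between 2.61 and 3.53 on the log2 scale. PLK1 had 4.13, 7.26 and 5.09 CPM with afatinib and 55.8, 63.7 and 71.7 CPM in controls (-3.53 ± 0.16, adjusted p = 1.01e-08). AURKB, the kinase of the chromosomal passenger complex, had 9.46, 10.6 and 7.39 CPM with afatinib and 96.2, 88.0 and 93.0 CPM in controls (-3.33 ± 0.12, adjusted p = 1.05e-09). AURKA, the spindle pole kinase, had 72.0, 73.3 and 75.2 CPM with afatinib and 441, 448 and 462 CPM in controls (-2.61 ± 0.06, adjusted p = 3.52e-11). CCNB1, cyclin B1, had 13.2, 12.6 and 10.3 CPM with afatinib and 116, 109 and 108 CPM in controls (-3.19 ± 0.10, adjusted p = 4.55e-10). CDC20, the activator through which the checkpoint acts on APC/C, averaged 12.1 ± 0.894 CPM with afatinib and 102 ± 1.86 CPM in controls (-3.06 ± 0.09, adjusted p = 3.25e-10).

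By role, the medians in BT-474 lay between -3.13 for the 4 APC/C and anaphase genes and -2.30 for the 2 chromosome structure genes, MKI67 and TOP2A. The 6 kinetochore genes tested had a median of -2.82, the 9 kinesins -2.62, the 8 mitotic kinases and checkpoint genes -2.55 and the 4 passenger complex genes -2.55. MKI67, the proliferation antigen Ki-67, had 36.4, 36.0 and 31.5 CPM with afatinib and 138, 139 and 139 CPM in controls (-1.99 ± 0.08, adjusted p = 2.34e-09). CENPF (-2.93), CENPE (-2.52), FOXM1 (-2.40) and KPNA2 (-2.10) fell as well. The smallest falls were BUB3, a checkpoint protein, with 87.3 ± 1.22 CPM with afatinib and 120 ± 10.6 CPM in controls (-0.45 ± 0.08, adjusted p = 4.53e-04), CKAP2, a spindle protein (-0.63 ± 0.09), and INCENP, the scaffold of the passenger complex (-0.95 ± 0.11).

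**Figure D1:**
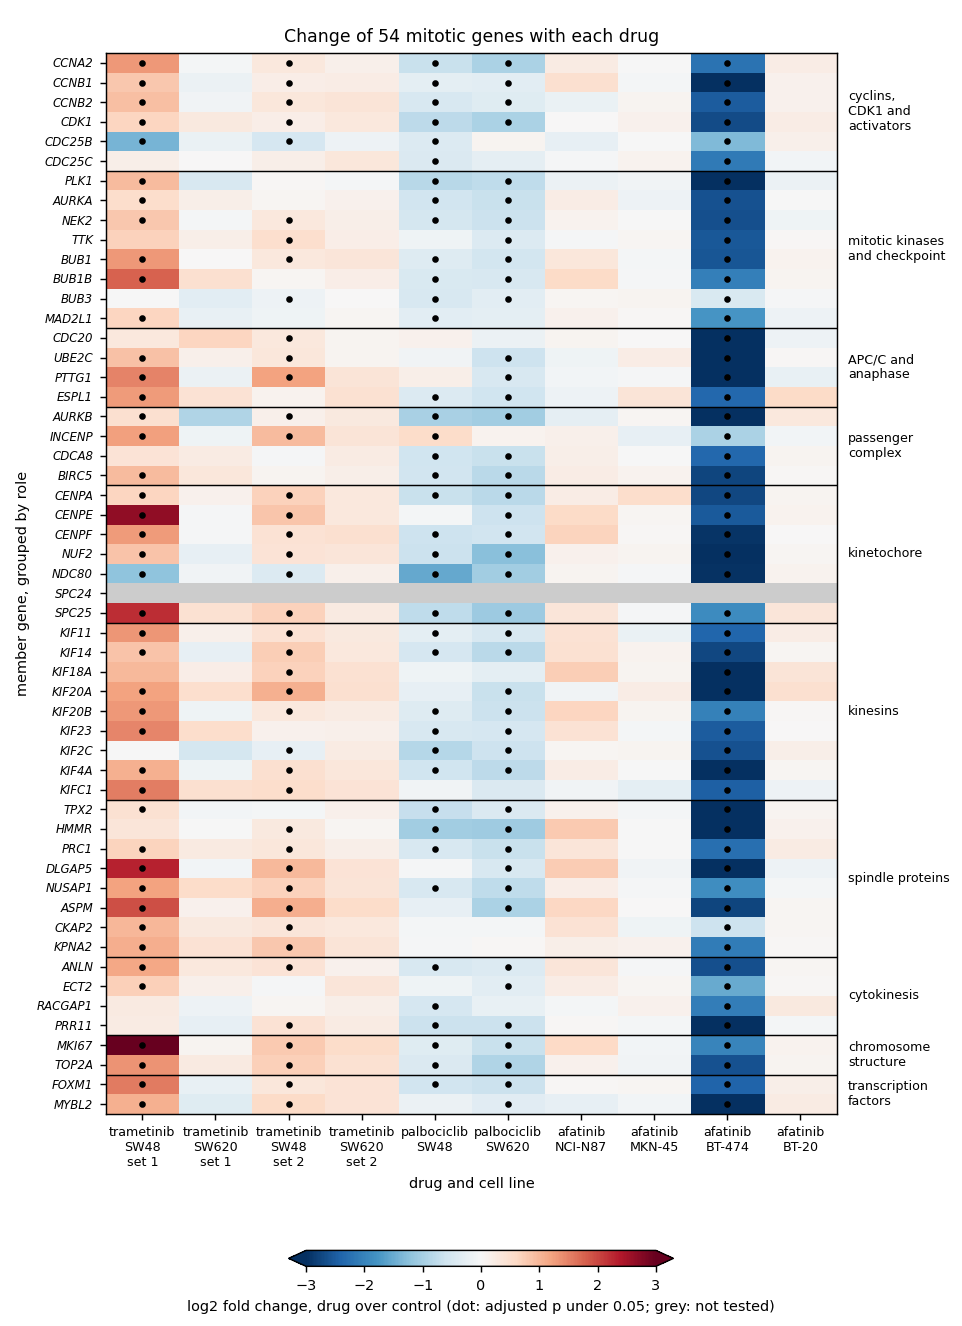
Log2 fold change, drug over the same line's controls of the same set, of the 54 genes (rows, grouped by role) in the 10 drug comparisons (columns, n = 3 libraries a group); dots mark an adjusted p under 0.05 and SPC24 is grey because it was not tested. The column of afatinib in BT-474 is blue and dotted for all 53 genes tested, the trametinib columns of SW48 are mostly red (41 and 37 genes higher), and the palbociclib columns are mostly blue (38 and 43 genes lower).

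Afatinib gave no call among the members in the other 3 lines. Over all genes tested, those with a p under 0.05 before adjustment were 1602 of 12810 in BT-20. They were 664 of 12358 in MKN-45 and 1523 of 12472 in NCI-N87. The unadjusted member counts that follow are to be read beside these. In BT-20, 0 of 53 passed (8 at an unadjusted p under 0.05; 0 by DESeq2), where 0.585% of all genes passed, and the median log2 fold change was 0.06, with a range from -0.22 for PTTG1 to 0.57 for ESPL1. In MKN-45, 0 of 53 passed (4 at an unadjusted p under 0.05; 0 by DESeq2), where 0% of all genes passed, with a median of -0.01 and a range from -0.29 for KIFC1 to 0.53 for CENPA. In NCI-N87, 0 of 53 passed (12 at an unadjusted p under 0.05; 0 by DESeq2), where again 0% of all genes passed, with a median of 0.17 and a range from -0.28 for AURKB to 0.79 for HMMR. MKI67 shows the 3 lines side by side: 96.2, 93.1 and 92.9 CPM with afatinib against 82.9, 88.9 and 93.8 CPM in controls of BT-20, and 688, 684 and 711 CPM with afatinib against 738, 800 and 676 CPM in controls of MKN-45. In NCI-N87 it had 520, 510 and 576 CPM with afatinib and 450, 307 and 313 CPM in controls. The NCI-N87 groups of MKI67 did not overlap (0.59 ± 0.17, adjusted p = 0.372), and nor did those of 15.8% of the genes with enough counts. Control 1 of NCI-N87 stood above the other controls for MKI67. Without that control, 19 of the 53 members passed in NCI-N87, and 2108 genes in all, against 0 with it.

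In NCI-N87, afatinib 3 was the highest of the 6 libraries for 33 of the 54 members, and control 1 for 1. Afatinib 3 was the shallowest library, with 3401565 counts, and mitochondrial ribosomal RNA took 4.96% of its counts and 10.3% in each of the other afatinib libraries. Control 1 had 5106615 counts, with 8.1% of mitochondrial ribosomal RNA. Controls 2 and 3 had 7329071 and 7036737 counts, with 3.39% and 3.18%, and these are the controls left when control 1 is taken out. The part of depth and of this share in the results was not tested. Control 1 was the highest of the 3 controls for 3 of the 4 genes given next, which were chosen after their values were seen. CENPF, a kinetochore protein, had 667, 662 and 671 CPM with afatinib and 558, 351 and 350 CPM in controls. DLGAP5, a spindle assembly protein, had 86.7, 78.8 and 92.7 CPM with afatinib and 79.7, 38.8 and 34.9 CPM in controls. CCNB1 had 115, 124 and 167 CPM with afatinib and 134, 86.0 and 70.2 CPM in controls, so its groups overlapped. PLK1 had 77.1, 91.8 and 73.6 CPM with afatinib and 60.3, 91.9 and 124 CPM in controls, with control 1 the lowest.

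The difference between the breast lines was itself tested, and the afatinib effect was lower in BT-474 than in BT-20 for 53 of 53 members (median difference of log2 fold changes -2.69), where 23.8% of all genes passed and 13.6% were lower. The largest difference was in PRR11 (-4.35 ± 0.10, adjusted p = 1.68e-14), followed by KIF20A (-4.19 ± 0.23) and NUF2 (-3.94 ± 0.16), and the smallest in BUB3 (-0.44 ± 0.10, adjusted p = 0.00436). Against NCI-N87, the effect in BT-474 was also lower for 53 of 53 (median -2.81), where 15.9% of all genes passed and 7.82% were lower; this comparison was added after the data were seen. HMMR differed most (-4.54 ± 0.35, adjusted p = 1.25e-06) and BUB3 least (-0.49 ± 0.13, adjusted p = 0.0208). Between the stomach lines, NCI-N87 minus MKN-45, 0 of 53 members passed, where 0.0145% of all genes passed, with a median difference of 0.21. Before adjustment, 13 of the 53 had a p under 0.05, beside 1578 of the 13791 genes tested. DESeq2 called 1 member, and its count over all genes is not given here.

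**Figure D2:**
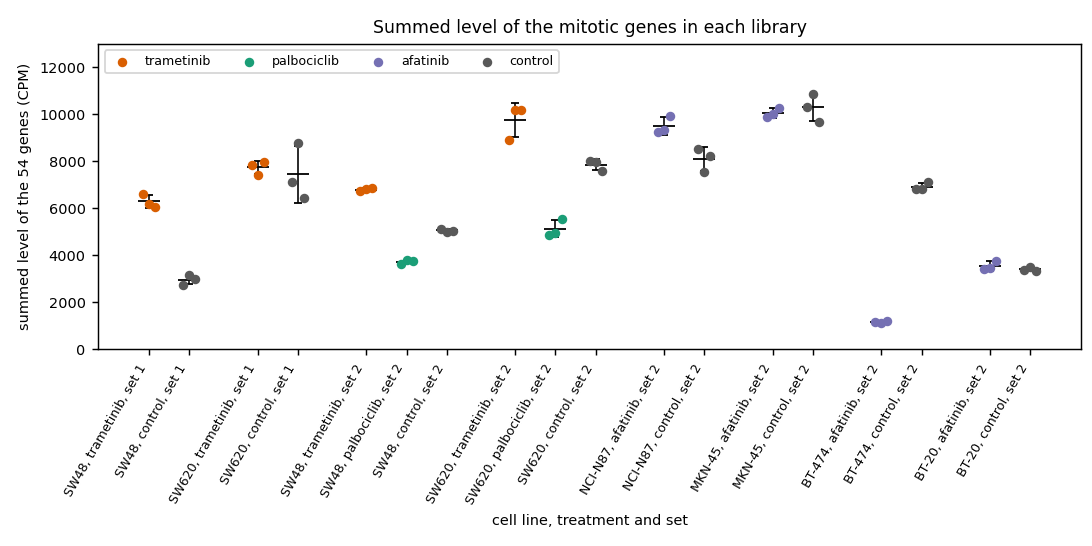
Summed level of the 54 genes (CPM) in each of the 54 libraries (points), by line, treatment and set, with the mean and SD of each group (black, n = 3). BT-474 with afatinib sits at 1133 to 1203 CPM and its controls at 6823 to 7111 CPM, the palbociclib libraries lie below and the trametinib libraries of SW48 above the controls of their line.

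Palbociclib lowered most of the members in both colorectal lines. In SW48, 38 of 53 fell and 1 rose, where 57.5% of all genes passed and 29.2% were lower, with a median log2 fold change of -0.47 against 0.01 over all genes. In SW620, 43 of 53 fell and none rose, where 35.0% of all genes passed and 17.4% were lower, with a median of -0.61 against 0.00 over all genes. The summed level was 3734 ± 79.5 CPM with palbociclib and 5060 ± 71.5 CPM in controls of SW48, and 5125 ± 363 CPM with palbociclib and 7859 ± 223 CPM in controls of SW620. The lines have separate controls, and 34 members fell in both, which is 89.5% of those that fell in SW48 and 79.1% of those that fell in SW620. Shares of this kind were not counted over all genes. Across the 53 members the fold changes of the 2 lines correlated with a Pearson r of 0.67 and a Spearman rho of 0.65, given as a description, since genes of 1 library are not independent. In SW620 the 5 epithelial markers summed to 8120 to 8700 CPM with palbociclib and 4700 to 5460 CPM in controls, and the 5 stromal markers to 30.3 to 54.6 CPM with palbociclib and 13.5 to 18.6 CPM in controls. In SW48 the epithelial markers summed to 4530 to 5040 CPM with palbociclib and 3880 to 4030 CPM in controls, and the stromal markers to 18 to 22.3 CPM with palbociclib and 11.5 to 12.2 CPM in controls. In that line mitochondrial ribosomal RNA took 2.94% to 4.52% of counts with palbociclib and 0.97% to 1.60% in controls. The part of these measures in the results was not tested.

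The kinetochore genes had the lowest medians with palbociclib, -0.66 in SW48 and -0.93 in SW620. NDC80, the microtubule-binding subunit of the complex it names, had 26.3, 24.4 and 23.0 CPM with palbociclib and 70.6, 67.6 and 74.1 CPM in controls of SW48 (-1.54 ± 0.08, adjusted p = 1.28e-09). In SW620 it had 20.9, 27.0 and 26.9 CPM with palbociclib and 50.4, 62.2 and 45.0 CPM in controls (-1.05). NUF2, its partner, had 27.7, 31.3 and 28.5 CPM with palbociclib and 69.9, 69.9 and 73.1 CPM in controls of SW620 (-1.26 ± 0.09, adjusted p = 6.34e-06). The groups of NDC80 and NUF2 were apart in both lines, as were those of 62.9% of the genes with enough counts in SW48 and 48.2% in SW620. SPC25, of the same complex, fell in SW620 (-1.08 ± 0.15, adjusted p = 3.94e-04).

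Kinases fell in both lines. AURKB had 69.0, 58.9 and 65.7 CPM with palbociclib and 128, 130 and 122 CPM in controls of SW48 (-0.98 ± 0.08, adjusted p = 6.09e-08), and 136, 111 and 147 CPM with palbociclib and 284, 288 and 243 CPM in controls of SW620 (-1.03 ± 0.11, adjusted p = 6.22e-05). PLK1 had 62.3, 64.1 and 55.0 CPM with palbociclib and 97.2, 123 and 99.5 CPM in controls of SW48 (-0.83 ± 0.10), and 86.0, 89.4 and 91.2 CPM with palbociclib and 167, 149 and 146 CPM in controls of SW620 (-0.77 ± 0.08). AURKA fell by 0.58 in SW48 and by 0.66 in SW620 on the log2 scale. HMMR had 16.2, 18.8 and 20.4 CPM with palbociclib and 38.2, 38.5 and 36.3 CPM in controls of SW48 (-1.04 ± 0.10, adjusted p = 7.78e-07) and fell by 1.07 on the log2 scale in SW620. MKI67 (-0.37 in SW48 and -0.66 in SW620), FOXM1 (-0.57 and -0.65), CENPF (-0.62 and -0.58) and CCNB1 (-0.29 and -0.32) fell in both lines as well.

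Some members were not lowered by palbociclib. INCENP rose in SW48, with 33.2, 36.9 and 36.8 CPM with palbociclib and 25.9, 23.1 and 23.3 CPM in controls (0.55 ± 0.09, adjusted p = 1.47e-04), and did not pass in SW620 (0.11 ± 0.10). CKAP2 (-0.05 ± 0.07 in SW48 and -0.07 ± 0.09 in SW620), KPNA2, a nuclear import receptor (-0.03 ± 0.07 and 0.04 ± 0.13), and CDC20 (0.13 ± 0.07 and -0.18 ± 0.09) did not pass in either line. PTTG1, securin, had 72.5, 67.2 and 59.8 CPM with palbociclib and 59.9, 65.5 and 50.9 CPM in controls of SW48 (0.17 ± 0.10, adjusted p = 0.151), but fell in SW620 (-0.47). CDC25B, a phosphatase that activates CDK1, fell in SW48 (-0.42) and had 408, 393 and 450 CPM with palbociclib and 412, 432 and 362 CPM in controls of SW620 (0.07 ± 0.09, adjusted p = 0.560).

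The palbociclib effect differed between the lines for 11 of 53 members, 8 higher and 3 lower in SW48 minus SW620, where 25.7% of all genes passed; with the size factors of DESeq2 the split was 10 higher and 1 lower. ASPM, a spindle pole protein, differed most (0.70 ± 0.17, adjusted p = 0.00571): it had 56.9, 70.5 and 83.0 CPM with palbociclib and 77.5, 81.2 and 89.3 CPM in controls of SW48, and 57.5, 56.5 and 71.1 CPM with palbociclib and 120, 121 and 124 CPM in controls of SW620. PTTG1 (0.63 ± 0.13) and NUF2 (0.61 ± 0.15) were also higher in SW48 minus SW620. CDC25B (-0.50 ± 0.11, adjusted p = 0.00241), NDC80 (-0.50 ± 0.17) and TPX2, the activator of AURKA (-0.26), were lower. The call of NDC80 was lost in 12 and that of TPX2 in 15 of 17 alternatives (adjusted p 0.00763 to 0.137 and 0.0192 to 0.246).

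Trametinib raised most of the members in SW48. In set 1, 41 of 53 rose and 2 fell, where 35.4% of all genes passed and 16% were higher, with a median log2 fold change of 0.96 against 0.01 over all genes; when SW48 and SW620 of set 1 shared 1 model, 26 rose and 2 fell. In set 2, 37 of 53 rose and 4 fell, where 60.1% of all genes passed and 30.1% were higher, with a median of 0.33 against 0.01 over all genes. The sets have separate controls, and 32 members rose in both, 78.0% of those that rose in set 1 and 86.5% of those that rose in set 2. The matching shares over all genes were not counted. The fold change was larger in size in set 1 for 48 of the 53, with a Pearson r of 0.69 and a Spearman rho of 0.61 across them. The summed level was 6292 ± 289 CPM with trametinib and 2970 ± 206 CPM in controls in set 1, and 6800 ± 58.0 CPM with trametinib and 5060 ± 71.5 CPM in controls in set 2. The trametinib groups of the sets lay close in this sum, and the control groups did not; the sets were scaled apart.

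The members that rose most in SW48 in set 1 were MKI67, CENPE and DLGAP5. MKI67 had 563, 457 and 454 CPM with trametinib and 43.3, 68.9 and 73.7 CPM in controls (2.99 ± 0.20, adjusted p = 3.20e-05). In set 2 it had 388, 368 and 408 CPM with trametinib and 216, 216 and 237 CPM in controls (0.78 ± 0.06, adjusted p = 3.43e-07). CENPE, a kinetochore kinesin that carries chromosomes to the spindle equator, had 225, 137 and 217 CPM with trametinib and 24.4, 35.7 and 31.3 CPM in controls in set 1 (2.67 ± 0.22, adjusted p = 8.84e-05), and 114, 104 and 108 CPM with trametinib and 62.5, 57.5 and 61.8 CPM in controls in set 2 (0.83 ± 0.07). DLGAP5 had 80.6, 57.6 and 60.5 CPM with trametinib and 14.4, 12.8 and 13.4 CPM in controls in set 1 (2.30 ± 0.17, adjusted p = 4.98e-05), and rose by 0.98 on the log2 scale in set 2. The groups of these 3 genes did not overlap in either set, and nor did those of 49.6% of the genes with enough counts in set 1 and 65.5% in set 2.

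In set 2 the largest rise was in PTTG1, with 135, 139 and 138 CPM with trametinib and 59.9, 65.5 and 50.9 CPM in controls (1.21 ± 0.08, adjusted p = 9.90e-08); in set 1 it had 124, 128 and 129 CPM with trametinib and 47.5, 47.2 and 42.8 CPM in controls (1.48). Its groups did not overlap in either set, which also held in each set for the shares of genes given above (49.6% and 65.5%). ASPM (1.08 ± 0.08) and KIF20A (1.07 ± 0.12) followed in set 2, and both also rose in set 1 (1.94 and 1.21). KPNA2 had 140, 136 and 121 CPM with trametinib and 76.3, 74.9 and 72.6 CPM in controls in set 2 (0.81 ± 0.07, adjusted p = 9.24e-07), and rose by 1.09 in set 1. CENPF, FOXM1, CKAP2, CCNB1 and AURKB rose in both sets, but in set 2 the call of AURKB was lost in 7 and that of CCNB1 in 3 of 11 alternatives (adjusted p 0.0371 to 0.229 and 0.0151 to 0.189). PLK1 and AURKA rose in set 1 (0.95 and 0.53) and did not pass in set 2 (0.04 ± 0.10 and 0.05 ± 0.06), while CDC20 rose in set 2 (0.32 ± 0.06) and did not pass in set 1 (0.31 ± 0.20). The set 1 calls of PLK1, AURKA, AURKB, KIF20A and KPNA2 were each lost in 1 of 11 alternatives. Their highest adjusted p-values there were 0.176, 0.0737, 0.508, 0.161 and 0.118, in that order.

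CDC25B and NDC80 went the other way in SW48 in both sets. CDC25B had 50.5, 41.7 and 42.5 CPM with trametinib and 108, 131 and 117 CPM in controls in set 1 (-1.39 ± 0.12, adjusted p = 1.31e-04), and 127, 126 and 122 CPM with trametinib and 178, 167 and 180 CPM in controls in set 2 (-0.51 ± 0.06, adjusted p = 1.24e-05). NDC80 had 38.1, 31.6 and 25.1 CPM with trametinib and 59.1, 96.1 and 65.4 CPM in controls in set 1 (-1.21 ± 0.23, adjusted p = 0.00444), and 55.0, 52.1 and 56.1 CPM with trametinib and 70.6, 67.6 and 74.1 CPM in controls in set 2 (-0.40 ± 0.07). The other kinetochore genes tested, CENPA, CENPE, CENPF, NUF2 and SPC25, rose in both sets. KIF2C, a kinesin that takes microtubules apart at the kinetochore (-0.26 ± 0.07), and BUB3 (-0.15) fell in set 2 and did not pass in set 1 (-0.02 ± 0.19 and -0.01). The set 2 call of BUB3 was lost in 8 of 11 alternatives (adjusted p 0.0256 to 0.144).

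By role, the medians with trametinib in SW48 in set 1 ran from 0.50 for the 4 cytokinesis genes to 2.17 for MKI67 and TOP2A, with 1.21 for the kinesins, 1.06 for the kinetochore genes and 0.75 for the kinases and checkpoint genes. In set 2 they ran from 0.05 for the kinases and checkpoint genes to 0.75 for MKI67 and TOP2A. Of the 8 kinases and checkpoint genes, 3 rose (37.5%) and 1 fell (12.5%), where 30.1% of all genes passed in each direction, so the share that rose lay near that of all genes. Several other measures moved with trametinib in SW48, and their part in these results was not tested. In set 1 the reads not aligned were 42.4% to 47.5% of a library with trametinib and 22.4% to 38.0% in controls. The share of mitochondrial ribosomal RNA in set 1 was 4.64% to 5.64% in trametinib libraries and 1.62% to 3.81% in control libraries. In set 2 it was 2.25% to 3.33% with trametinib and 0.97% to 1.60% in controls. The 5 epithelial markers summed to 2730 to 2820 CPM with trametinib and 5240 to 5770 CPM in controls in set 1, and to 1690 to 1770 CPM with trametinib and 3880 to 4030 CPM in controls in set 2. The 5 stromal markers summed to 20.1 to 26.7 CPM with trametinib and 4.85 to 16.5 CPM in controls in set 1. Their sums in set 2 were 36.9 to 41.9 CPM with trametinib and 11.5 to 12.2 CPM in controls.

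**Figure D3:**
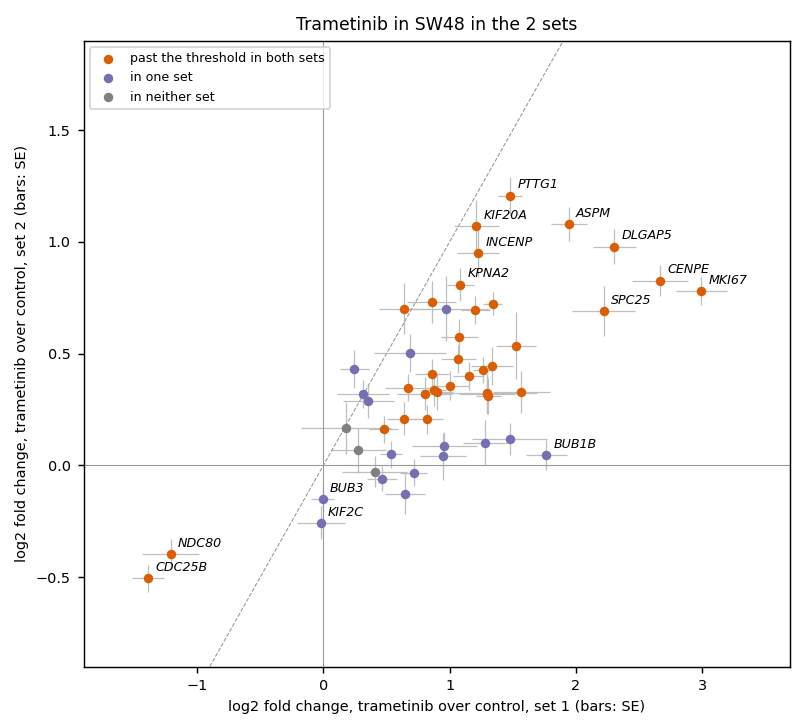
Log2 fold change of 53 genes in SW48, trametinib over control, in set 1 (horizontal) and set 2 (vertical), with SE bars and a dashed line of equal values; colours show whether a gene passed the threshold in both sets, in one or in neither. Most points lie to the right of 0 and below the line, and CDC25B and NDC80 lie below 0 in both sets.

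In SW620 trametinib gave no call. In set 1, 0 of 53 members passed, where 0% of all genes passed, with a median of 0.00. Before adjustment, 1 of the 53 had a p under 0.05, beside 366 of the 13081 genes tested. DESeq2 called 0 members. Control 3 set the width of many groups: PLK1 had 100, 124 and 114 CPM with trametinib and 80.1, 86.7 and 310 CPM in controls, and KIF20A had 36.0, 39.2 and 35.3 CPM with trametinib and 34.1, 39.5 and 4.58 CPM in controls. AURKB likewise had 135, 120 and 121 CPM with trametinib and 113, 132 and 456 CPM in controls. Without control 3 the fold changes of PLK1 and AURKB turned from negative (-0.49 and -0.90) to positive (0.44 and 0.04), and still 0 members passed.

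In set 2, 0 of 53 members passed in SW620, where 0% of all genes passed. Before adjustment, 28 of the 53 had a p under 0.05, beside 2204 of the 12919 genes tested. DESeq2 called 3 members, and its count over all genes is not given here. Of the 53, 51 had a positive fold change, with a median of 0.29, a lowest value of -0.15 for CDC25B and a highest of 0.55 for MKI67. MKI67 had 302, 342 and 444 CPM with trametinib and 232, 247 and 262 CPM in controls (0.55 ± 0.15, adjusted p = 0.218). ASPM had 141, 160 and 230 CPM with trametinib and 120, 121 and 124 CPM in controls (0.54 ± 0.17, adjusted p = 0.219). CENPF had 550, 614 and 718 CPM with trametinib and 433, 452 and 459 CPM in controls (0.48 ± 0.12, adjusted p = 0.218). In these 3 genes the groups did not overlap, and nor did they in 22% of the genes with enough counts. Trametinib 1 was the lowest of its group in the 3 genes. Without trametinib 1, 19 members passed, with 882 genes in all. When every group of set 2 shared 1 model, 7 members passed, with 632 genes in all.

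A direct test compared the size of the trametinib effect in SW48 with that in SW620. In set 1 it was higher in SW48 than in SW620 for 16 of 54 members and lower for 1, CDC25B (-1.21 ± 0.22, adjusted p = 0.00792), where 6.73% of all genes passed and 2.78% were higher. MKI67 (2.90 ± 0.36, adjusted p = 7.44e-04) and CENPE (2.70 ± 0.41, adjusted p = 0.00276) had large differences. SPC24 had the largest (3.71 ± 0.98, adjusted p = 0.0452), but on 8, 3 and 5 counts with trametinib and 2, 2 and 2 in controls of SW48, and 5, 1 and 3 counts with trametinib and 11, 7 and 14 in controls of SW620, and its call was lost in 14 of 16 alternatives (adjusted p 0.0431 to 0.149). Leaving out 1 library at a time moved the number of members called between 8 and 31, with 31 without control 3 of SW620. How many of all genes passed in those fits is not given here. In set 2 the effect differed for 8 of 53 members, 4 higher and 4 lower, where 28.2% of all genes passed; with the size factors of DESeq2 the split was 4 higher and 2 lower. PTTG1 (0.81 ± 0.14, adjusted p = 6.60e-04) and INCENP (0.55 ± 0.17, adjusted p = 0.0287) were higher in SW48 minus SW620, and NDC80 (-0.57 ± 0.14, adjusted p = 0.00785), KIF2C (-0.53 ± 0.14) and ECT2, a cytokinesis factor (-0.41 ± 0.14), were lower. The call of ECT2 was lost in 13 and that of INCENP in 4 of 17 alternatives (adjusted p 0.00529 to 0.131 and 0.00628 to 0.0750).

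Trametinib and palbociclib were compared directly in set 2. The members were higher with trametinib than with palbociclib in 50 of 53 cases in SW48, where 41.9% of all genes passed and 21.0% were higher, and in 51 of 53 cases in SW620, where 32.7% passed and 15.9% were higher. None was lower. The median log2 difference was 0.82 in SW48 and 0.87 in SW620, against 0.00 and 0.02 over all genes tested. In SW48 the largest differences were in SPC25, with 26.7, 27.0 and 26.8 CPM with trametinib and 7.22, 13.3 and 8.79 CPM with palbociclib (1.45 ± 0.17, adjusted p = 1.70e-05), CENPA, the centromeric histone (1.37 ± 0.13), and HMMR (1.33 ± 0.10). In SW620 they were in NUF2, with 83.9, 98.2 and 91.8 CPM with trametinib and 27.7, 31.3 and 28.5 CPM with palbociclib (1.64 ± 0.10, adjusted p = 1.24e-05), ASPM (1.52 ± 0.18) and TOP2A, which untangles DNA (1.39 ± 0.10).

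The members that did not differ between the drugs past the threshold were few. CDC25B did not pass in either line (-0.09 ± 0.06 in SW48 and -0.20 ± 0.09 in SW620). MAD2L1, a checkpoint protein (0.19 ± 0.10), and ECT2 (0.11 ± 0.07) did not pass in SW48, and INCENP (0.28 ± 0.13) did not pass in SW620. CDC20, the third lowest in SW620, had 98.9, 104 and 106 CPM with trametinib and 92.0, 76.9 and 83.5 CPM with palbociclib (0.29 ± 0.10, adjusted p = 0.0411). Its call was lost in 6 of 11 alternatives in SW620 (adjusted p 0.0123 to 0.148) and in 7 of 11 in SW48 (0.0190 to 0.13). The 2 drugs share their controls within a line, and the plot of 12 genes by library shows all 3 groups.

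**Figure D4:**
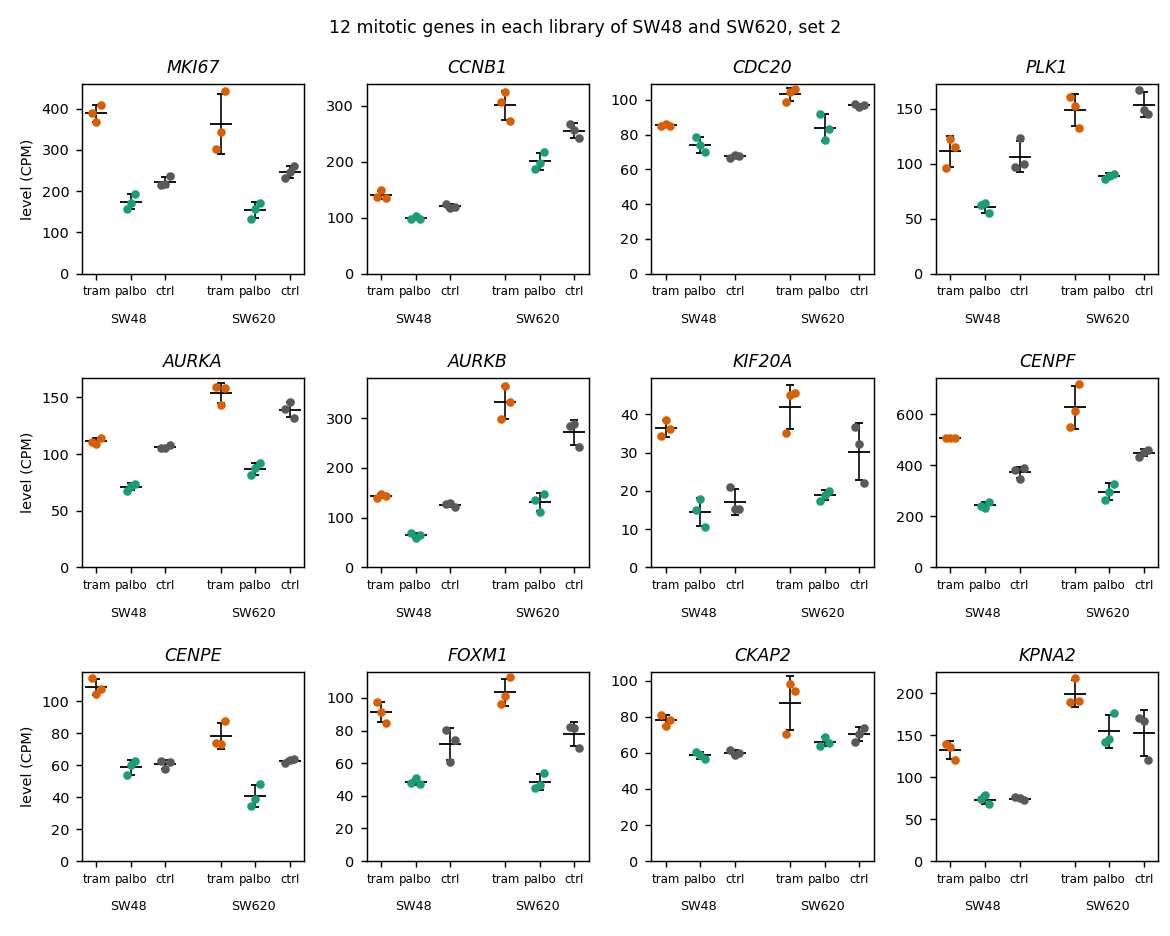
Level (CPM) of 12 genes in each library of SW48 and SW620 in set 2 with trametinib, palbociclib or as controls (points), with the mean and SD of each group (black, n = 3); each vertical axis starts at 0. For MKI67, CENPF and FOXM1 the palbociclib libraries lie below and the trametinib libraries above the controls in both lines, whereas for CKAP2 and KPNA2 the palbociclib libraries lie at the level of the controls.

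Untreated lines differed in every member tested: 53 of 53 passed a test over the 6 control groups of set 2, where 97.1% of all genes passed. MKN-45 had the highest mean for 34 of the 54, SW620 for 9, BT-474 for 7, NCI-N87 for 2 and BT-20 for 2, and BT-20 had the lowest for 39. How often each line was highest or lowest over all genes was not counted. The count of highest means in BT-20 includes SPC24, which was not tested, at 0.775 ± 0.145 CPM. The summed level was 10290 ± 586 CPM in MKN-45, 8113 ± 506 in NCI-N87, 7859 ± 223 in SW620, 6920 ± 165 in BT-474, 5060 ± 71.5 in SW48 and 3405 ± 80.8 in BT-20. TOP2A alone averaged 3515 CPM in NCI-N87, so the place of that line in the sums rests largely on 1 gene. By the median level of the 54 genes, NCI-N87 controls had 62.3 to 69.6 CPM, below SW620 (73.5 to 87.3 CPM) and BT-474 (70.3 to 74.3 CPM). MKI67 followed the order of the sums at its ends, with 738 ± 62.1 CPM in MKN-45 and 88.5 ± 5.49 CPM in BT-20, 8.34 times lower. Its order was MKN-45, NCI-N87, SW620, SW48, BT-474 and BT-20, and 4 of the 5 neighbouring pairs had ranges that did not overlap. MYBL2, a transcription factor of these genes, had 356 ± 33.2 CPM in MKN-45 and 38.9 ± 1.31 CPM in SW48.

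A few members broke this order between untreated lines. PRR11 was highest in BT-474, at 696 ± 16.2 CPM, and lowest in SW48, at 48.6 ± 5.68 CPM, a ratio of 14.3, and its 6 lines had ranges that did not overlap between neighbours. AURKA, on chromosome 20 (56369389 to 56392337), was highest in BT-474, at 450 ± 10.3 CPM, and lowest in NCI-N87, at 81.6 ± 4.83 CPM, again with no overlap between neighbours. TOP2A, on chromosome 17 (40388516 to 40417950), was highest in NCI-N87, at 3515 ± 306 CPM, and lowest in BT-20, at 685 ± 15.4 CPM. CDC25B was highest in SW620, at 402 ± 35.6 CPM, and lowest in MKN-45, at 46.9 ± 6.72 CPM, where most members were highest. CENPA was highest in BT-20, at 28.7 ± 2.46 CPM, and lowest in MKN-45, at 12.7 ± 4.13 CPM, with 1 of the 5 neighbouring pairs apart. FOXM1 varied less, from 138 ± 8.90 CPM in MKN-45 to 62.5 ± 5.56 CPM in NCI-N87.

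**Figure D5:**
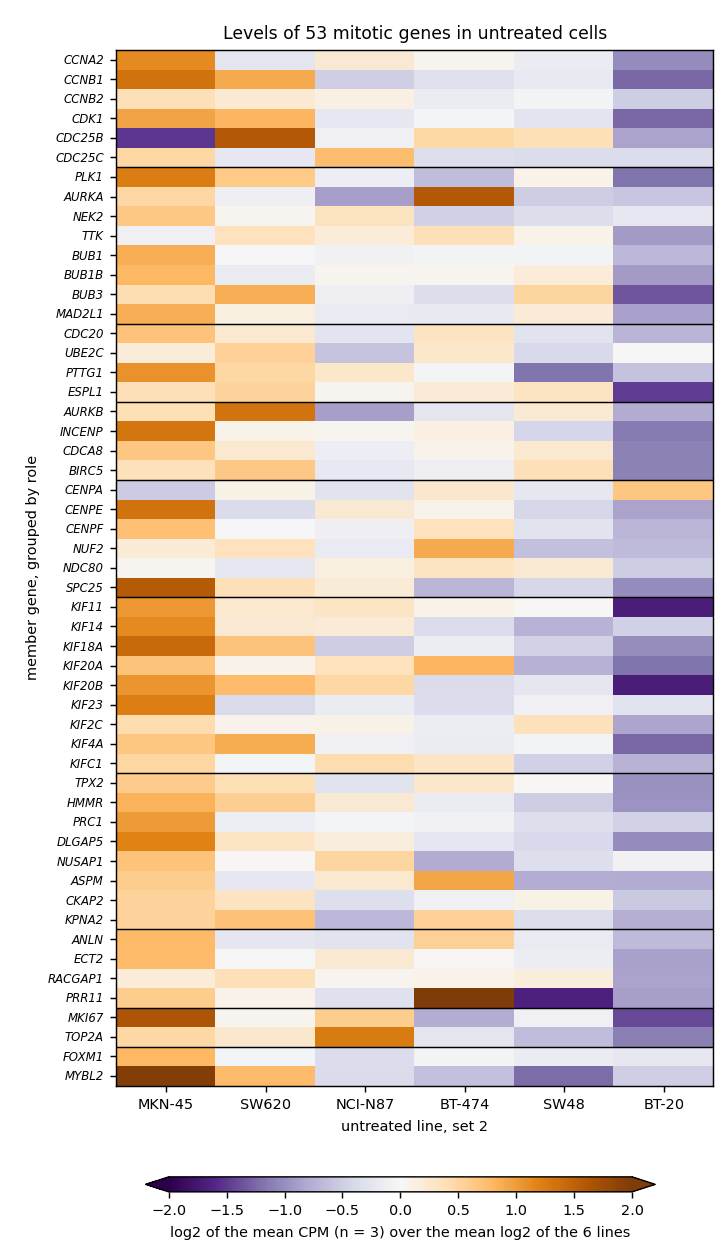
Mean level of 53 genes (rows, grouped by role) in the controls of the 6 lines of set 2 (columns, n = 3 libraries each), as the log2 CPM minus the mean of the 6 lines; SPC24 is left out for its low counts. MKN-45 is mostly orange and BT-20 mostly purple, with CENPA the other way in both and CDC25B low in both, and PRR11 and AURKA stand out in BT-474.

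Genes that work beside the members were described from lists of related genes. Of 59 other mitotic genes, 58 fell with afatinib in BT-474 (median -2.26), from PIMREG (-3.93) to BORA (-0.24, adjusted p = 0.644), which did not pass. Of 34 DNA replication genes tested, 32 fell in BT-474 (median -1.38), with the thymidine kinase TK1 lowest (-2.74). Of 14 APC/C subunits tested, 5 fell and none rose (median -0.12), with CDC27 lowest (-0.49, adjusted p = 0.0016), and of 10 cohesin and separation genes 6 fell (median -0.25), with RAD21 lowest (-0.83). Beside these counts, 42.7% of all genes tested in BT-474 were called and 21.8% were lower.

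With palbociclib the replication genes fell in 27 of 34 cases in SW48 (median -0.60) and in 22 of 34 in SW620 (median -0.44), with PRIM1, a primase subunit, lowest in both (-2.59 and -2.02). Cohesin genes fell in 8 of 10 cases in each line (medians -0.43 and -0.45), and other mitotic genes in 34 of 59 in SW48 and 39 of 59 in SW620. Of all genes tested, 29.2% were lower with palbociclib in SW48 and 17.4% in SW620. With trametinib in SW48, other mitotic genes rose in 35 of 58 cases in set 1 and none fell, and rose in 31 of 59 in set 2, where 8 fell. Of 34 replication genes, 18 were higher and 2 lower in set 1 (median 0.76), where 16% of all genes were higher. In set 2, 10 were higher and 11 lower (median -0.05), shares of 29.4% and 32.4% that lie near the 30.1% of all genes in each direction. CDC6, a licensing factor, fell in both sets (-1.05 and -0.81). With trametinib minus palbociclib, 52 of 59 other mitotic genes were higher in each line, and 30 and 27 of 34 replication genes in SW48 and SW620. There, 21.0% of all genes tested were higher in SW48 and 15.9% in SW620.

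Members with and without the homology region, searched from 250 bases before to 50 bases after the start, had overlapping ranges of change. With afatinib in BT-474 the median log2 fold change was -2.56 in the 33 members with the motif and -2.63 in the 12 tested members without it. With palbociclib the medians were -0.47 with and -0.35 without the motif in SW48, and -0.63 and -0.54 in SW620. With trametinib in SW48 they were 1.09 with and 0.91 without it in set 1, and 0.41 and 0.32 in set 2. These are descriptions of the members with a promoter in the table, and no test was made.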

How the data were processed

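RNA libraries were made from 500 ng of total RNA with the Lexogen QuantSeq kit, per the labels' protocols, so 1 tag stands for 1 transcript end and levels were not divided by gene length. Trimmomatic, STAR, featureCounts and hg38 are named in the submitters' processing notes, without versions. The authors' deposited files give raw counts for each gene symbol; 5 lines of unassigned reads in the first table were left out, and 12 columns of the second table, identical to the first, were not used.

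A comparison used only the libraries of the groups it names, in R 4.3.3 with edgeR 4.0.16: filterByExpr (minimum count 10, minimum total 15), TMM, quasi-likelihood F test, two-sided, Benjamini-Hochberg adjustment over all genes tested, threshold 0.05. Untreated lines were tested with an F test over 6 control groups. Fold changes are log2 values, drug over control, with SE from the test statistic; levels are CPM with TMM over all libraries of a set, so they can differ slightly from the fitted fold. Sets were never pooled. Positions are from GENCODE v29 on GRCh38, promoters from RefSeq. The fits were also run on simulated counts that held no outlying library, and no result here rests on that run. The members, lists and tests were chosen with earlier results of these data known. Named genes were 12 fixed anchors, the 3 highest and 3 lowest members of each comparison and called members against the majority; other members named were chosen after their values were seen. Symbols KNL1, SGO1, SGO2, PIMREG and WAPL were matched by older names. The SE of a fold change and the SD of a level both include the variation between the 3 libraries of a group. Alternatives were DESeq2 size factors, no filter, DESeq2 1.42.0, the replicate number as a block, all groups of a set in 1 fit, and each library left out. Figures used Python 3.11.15 and matplotlib 3.10.9.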

Additional observations from a re-analysis of the deposited data

Results flagged for a closer look

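Several drug effects differed between lines in a test of the difference itself. The afatinib effect differed between BT-474 and BT-20 for 53 of 53 members (23.8% of all genes), with PRR11 lowest at a log2 difference of -4.35, and between BT-474 and NCI-N87 for 53 of 53 (15.9% of all genes), with HMMR lowest at -4.54. The trametinib effect differed between SW48 and SW620 in set 1 for 17 of 54 members (6.73% of all genes), from CDC25B at -1.21 to SPC24 at 3.71, which had few counts and lost its call in 14 of 16 alternatives. In set 2 the same difference passed for 8 of 53 members, from NDC80 at -0.57 to PTTG1 at 0.81, a smaller share than the 28.2% of all genes. The palbociclib effect differed between the 2 lines for 11 of 53 members, from CDC25B at -0.50 to ASPM at 0.70, again a smaller share than the 25.7% of all genes. CDC25B was lower in SW48 minus SW620 in each of these 3 comparisons, and the trametinib and palbociclib comparisons of set 2 share their controls.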

How the results depend on the processing

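The number of members past the threshold stayed within 1.5 times the value reported in 84 of 94 checks under another normalisation, filter, tool, block or grouping. When every group of a set shared 1 model the count was 28 for trametinib in SW48 in set 1, 7 for trametinib in SW620 in set 2, 15 for afatinib in NCI-N87 and 7 for NCI-N87 minus MKN-45. With no filter on low counts it was 4 for trametinib in SW620 in set 2, 3 for afatinib in NCI-N87, 1 for afatinib in BT-20 and 11 for the difference between SW48 and SW620 in set 1. With DESeq2 it was 3 for trametinib in SW620 in set 2 and 1 for NCI-N87 minus MKN-45. These are counts of members alone, so they do not show whether the members moved more than other genes. For trametinib in SW620 in set 2 with 1 model, the number of all genes that passed rose too, as given above. The cause of these shifts was not tested.

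Leaving out 1 library at a time gave 0 to 19 members for trametinib in SW620 in set 2, 0 to 19 for afatinib in NCI-N87, 0 to 16 for NCI-N87 minus MKN-45 (16 without control 1 of NCI-N87), 8 to 31 and 5 to 11 for the trametinib difference between lines in sets 1 and 2, and 7 to 11 for the palbociclib difference. It gave 38 to 41 and 37 to 40 for trametinib in SW48 in sets 1 and 2, 35 to 40 and 38 to 43 for palbociclib in SW48 and SW620, and 53 in each case for afatinib in BT-474. These too are counts of members alone. Where the number of all genes is given above, for trametinib in SW620 in set 2 and afatinib in NCI-N87, it rose as well. Among named members that had not passed, the sign changed without a library for KIF2C with trametinib in SW48 in set 1 (-0.19 to 0.13), PLK1 and AURKB in SW620 in set 1 (-0.80 to 0.44 and -1.22 to 0.039), BUB3 and PLK1 in SW620 in set 2 (-0.018 to 0.075 and -0.10 to 0.021), CDC25B and KPNA2 with palbociclib in SW620 (-0.0023 to 0.11 and -0.11 to 0.12), and CDC20 in the set 1 difference between lines (-0.62 to 0.050).

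Libraries with the same replicate number did not deviate together: over 36 pairs the correlation of deviations across genes ran from -0.16 to 0.12. With the replicate block, 42 members passed for trametinib in SW48 in set 1, 40 in set 2, 40 and 43 for palbociclib in SW48 and SW620, 53 for afatinib in BT-474 and 12 for the set 1 difference between lines. Of 152 calls of named or extreme members, which are not all calls of members, 24 were lost in at least 1 alternative. Depth limits SPC24, which did not pass the filter on low counts in any drug comparison fitted on its own groups.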
